A study of Mus musculus with 6 samples.

Results

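The genes described here encode the somatostatin and neuropeptide Y systems of the mouse cortex, namely the peptides Sst, Cort and Npy, the somatostatin receptors Sstr1, Sstr2, Sstr3 and Sstr4, and the neuropeptide Y receptors Npy1r, Npy2r and Npy5r. They were taken from the deposited table by gene symbol, and all 10 were found among its 45777 genes. RNA had been sequenced from BALB/c mice, an inbred strain, and from the anterior cingulate cortex, which lies at the midline of the frontal lobe. The stress group (stress 1 to 3) consisted of BALB/c mice that went through social defeat, in which a mouse is repeatedly attacked and subordinated by an aggressive one, for 5 days. The non-stress group (non-stress 1 to 3) consisted of BALB/c mice without defeat. The labels name no transgene, drug, age or sex, and it is not stated that the libraries are from separate animals. The p-values therefore reflect only how far these 6 libraries spread, a spread that may be technical.

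Somatostatin is an inhibitory peptide of cortical GABAergic interneurons that contact the dendrites of pyramidal cells, and cortistatin, the product of Cort, is a close relative that binds the same receptors. Neuropeptide Y is made by some of the somatostatin cells and by neurogliaform cells, another interneuron class, and is known for lowering excitability and for its role in stress and anxiety. The receptors of both families couple mainly to Gi/o proteins, which lower cyclic AMP, open potassium channels and restrain calcium channels. Transcription of Sst is a textbook case of control by cyclic AMP through a short DNA element, TGACGTCA, that is bound by the factor CREB.

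Because the title of the series names cyclic AMP signalling, the bases before the start of each gene were searched for this element and for its core, TGACG. RefSeq (GRCm38.p6) gave such windows for 9 of the 10 genes, each searched on both strands over the 250 bases before the start. Every full element also holds the core. In Sst, Sstr3, Npy1r and Npy2r the start used lies inside the RefSeq gene span, and so does the whole window. The full element was present in 2 genes, Sst and Sstr2, and the core in these and in Cort and Sstr3, at the first of the 2 starts listed for Sstr3. Of 27025 genes with a window, 1.77% held the full element and 19.8% held the core. The 30 bases around the matches of Sst, Sstr2 and Cort are shown because they set the 2 genes with the full element beside a peptide gene with the core alone. Capitals mark the match, and each run is read 5′ to 3′ on the strand of the gene.
Sst (chr16:23890874-23890903, minus strand, 59 to 30 bases before the RefSeq start): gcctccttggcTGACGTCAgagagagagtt
Sstr2 (chr11:113619258-113619287, plus strand, 69 to 40 bases before the start): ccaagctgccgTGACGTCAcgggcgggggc
Cort (chr4:149126765-149126794, minus strand, 31 to 2 bases before the start, with the core on the opposite strand): gctccggcttgtgCGTCAccgcgtgagtgt
In the GENCODE M21 annotation the first exon of Sst (23890607 to 23890958) begins 114 bases earlier and covers the stretch printed. The RefSeq gene span of Sst, which reaches 23891342, covers this stretch too. Its place before or inside the transcript therefore depends on the start used. A match is a description of these letters and not of binding. Among the tested genes, the 374 with the full element had a median log2 fold change of -0.01, and so did the 13981 with a searched window.

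Each of the 10 genes had its own place in the genome apart from a neighbouring pair. Npy1r (chromosome 8, 66697149 to 66706800, plus strand) and Npy5r (chromosome 8, 66679965 to 66688094, minus strand) lie head to head. The RefSeq starts used for the search, 66697422 for Npy1r and 66688094 for Npy5r, are 9.33 kb apart, and the span of Npy1r begins before its start. Sst lies on chromosome 16 (23889573 to 23891342), Npy on chromosome 6 (49822710 to 49829507) and Cort on chromosome 4 (149125034 to 149126763). The receptor genes of the somatostatin family lie on chromosomes 12 (Sstr1), 11 (Sstr2), 15 (Sstr3) and 2 (Sstr4), and Npy2r lies on chromosome 3. No exon of the 10 genes overlapped an exon of another gene in GENCODE M21. The peptide transcripts are short, with 721 bases in Sst, 677 in Cort and 566 in Npy, against 1424 to 4275 bases in the receptors.

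The counts summed to between 41623899 and 47212982 per library, and all 10 genes were above the filter on low counts that kept 19227 genes for testing. The libraries were not divided by group alone. On the leading principal component of the log2-scaled counts, which held 34.5% of the variance, non-stress 1 lay at -11.7. That was near the stress libraries (-20.4 to -14.9), and away from non-stress 2 (37.4) and non-stress 3 (27.4). On the second component (18.0%), non-stress 1 (-19.7) lay beside non-stress 2 (-21.1). The stress libraries lay there at 1.16 to 6.98 and non-stress 3 at 28.2. Several results are therefore given without non-stress 1 as well. Markers of cortical excitatory neurons were present at similar summed levels in all libraries, at 1553 to 1714 CPM (each count divided by the library total and scaled to a common total) over 7 genes, most of it from Slc17a7. In the same list Neurod6, a transcription factor of these neurons, was higher in every stress library (175 to 196 against 211 to 213 CPM, log2 difference 0.19, adjusted p = 0.344 by edgeR).

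Per length of transcript, Sst was the most abundant of the 10 messages and Npy the next. Over the 6 libraries Sst stood at 303 to 411 CPM per kb (mean 367), and 157 of the 17502 tested genes with a known length, itself included, were at or above its mean. Npy stood at 115 to 147 CPM per kb (mean 134), 2.75-fold below Sst and 5.09-fold above Sstr2. Sstr2 (24.1 to 27.8) and Sstr1 (21.2 to 28.0) came next, and their order was not stable, since Sstr2 was above Sstr1 in 4 of 6 libraries. Npy1r followed at 8.84 to 10.9 CPM per kb, below Sstr1 in all 6 libraries. Sstr4 (mean 5.10), Cort (4.35) and Npy5r (3.51) had overlapping ranges, and so did Npy5r and Sstr3 (2.85). Npy2r was lowest, at 0.233 to 0.772 CPM per kb, and was below Sstr3 in all 6 libraries. Cort, although related to Sst, was thus present at a far lower level per length: the counts of Sst were 71.0 to 101 times those of Cort within a library.

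**Figure D1:**
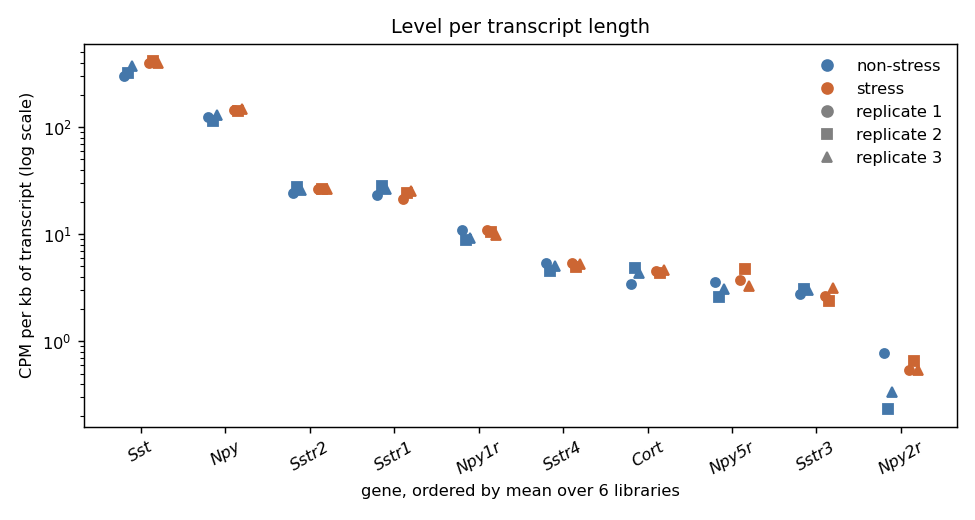
Level of each gene in CPM per kb of transcript (log scale) in the 6 libraries, with genes ordered by their mean; each point is a library, blue for non-stress and orange for stress, and the shape gives the replicate. Sst and Npy lie above all receptor genes in all 6 libraries, and Npy2r lies lowest, with its widest spread among the non-stress libraries.

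Stress was compared with non-stress to ask whether repeated defeat altered these peptide and receptor messages. The peptide genes Sst and Npy were higher in every stress library than in every non-stress library, by 1.21-fold and 1.17-fold, whereas none of the 7 receptor genes separated the groups. By edgeR's quasi-likelihood test with Benjamini-Hochberg adjustment over all genes, 0 of the 10 genes passed an adjusted p of 0.05, and 1 gene of the 19227 tested passed (0.00520%). At an unadjusted p under 0.05, 2 of the 10 were higher and 0 were lower, against 5.80% and 6.27% of all genes tested. The groups were apart in the higher direction for 2 of the 10 genes and in the lower direction for 0, against 8.43% and 9.43% of all genes tested. DESeq2's Wald test called Sst and Npy, where it called 0.828% of the genes to which it gave an adjusted p.

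Sst, the somatostatin gene, had 218, 232 and 270 CPM in non-stress 1, 2 and 3 and 286, 296 and 285 CPM in stress 1, 2 and 3. The stress libraries lay close together and above the highest non-stress library, non-stress 3, while the non-stress libraries were spread over a wider range. The means were 240 ± 26.7 CPM and 289 ± 6.19 CPM (SD, n = 3), a 1.21-fold difference. On the log2 scale the difference was 0.27 (SE 0.07, 95% interval 0.12 to 0.43), with an unadjusted p of 0.00313 and adjusted p = 0.344 by edgeR. DESeq2 gave the same size of difference and adjusted p = 0.0248. Leaving out non-stress 1 gave a log2 difference of 0.21 (SE 0.06), with an unadjusted p of 0.00565 and adjusted p = 0.0879 by edgeR. In that fit 3.02% of all genes tested passed in the higher and 0.967% in the lower direction. The lower adjusted p thus came with a smaller difference and a larger unadjusted p for Sst. Each library was also corrected for a smooth trend of its counts on GC content and transcript size. After this correction the difference of Sst with all 6 libraries was 0.21 (SE 0.06, adjusted p = 0.286 by edgeR). Without non-stress 1 the corrected difference was 0.15 (SE 0.05, adjusted p = 0.0962 by edgeR), in a fit added after the data were seen.

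Npy, the neuropeptide Y gene, had 70.9, 64.9 and 73.2 CPM in non-stress 1, 2 and 3 and 81.8, 79.5 and 83.2 CPM in stress 1, 2 and 3. All 3 stress libraries were again above all 3 non-stress libraries, here with non-stress 2 lowest. The means were 69.7 ± 4.28 and 81.5 ± 1.85 CPM (SD, n = 3), a 1.17-fold difference. The log2 difference was 0.23 (SE 0.05, 95% interval 0.11 to 0.35), with an unadjusted p of 0.00202 and adjusted p = 0.344 by edgeR, and adjusted p = 0.0421 by DESeq2. After the correction for GC content and transcript size the difference was 0.12 (SE 0.05, adjusted p = 0.393 by edgeR). That trend alone differed by 0.11 between the groups at the GC content and length of Npy, and by 0.06 at those of Sst.

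Cort, the cortistatin gene, did not separate the groups. It had 2.32, 3.26 and 2.93 CPM in non-stress 1, 2 and 3 and 3.10, 2.95 and 3.12 CPM in stress 1, 2 and 3, from 100 to 154 counts a library. The stress values lay inside the non-stress range, in which non-stress 1 was lowest. The log2 difference was 0.11 (SE 0.16, 95% interval -0.25 to 0.46, adjusted p = 0.817 by edgeR), and it was -0.02 without non-stress 1 and 0.22 without non-stress 2. The interval of Cort includes differences as large as those of Sst and Npy.

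**Figure D2:**
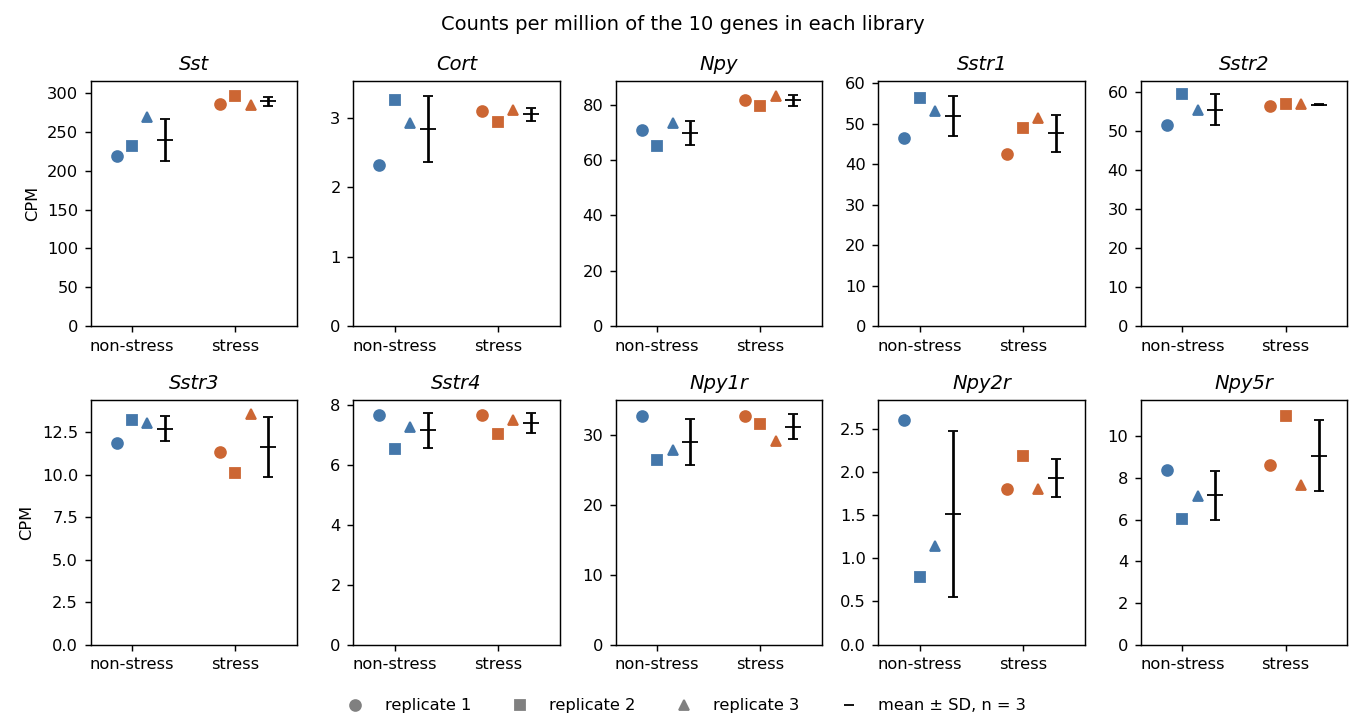
CPM of each of the 10 genes in the 3 non-stress (blue) and 3 stress (orange) libraries, with the replicate by shape and the mean ± SD (n = 3) beside each group in black; every axis starts at 0. In Sst and Npy the stress points all lie above the non-stress points, and in the other 8 genes the groups overlap.

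Among the somatostatin receptors, 2 of 4 had a log2 difference above 0 and 2 below, with a median of -0.04, against -0.00053 over all genes tested. Sstr2, the receptor with the highest mean level here and a Gi/o-coupled receptor of broad use in cortex, had 51.6, 59.5 and 55.5 CPM in non-stress 1, 2 and 3 and 56.6, 56.9 and 57.0 CPM in stress 1, 2 and 3. The stress libraries were nearly equal and lay inside the non-stress range. Its log2 difference of 0.03 had the narrowest interval of the receptors (95% interval -0.10 to 0.17, adjusted p = 0.844 by edgeR). It was -0.02 without non-stress 1.

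Sstr1 had 46.5, 56.3 and 53.1 CPM in non-stress 1, 2 and 3 and 42.6, 48.9 and 51.5 CPM in stress 1, 2 and 3. The groups overlapped, with stress 1 lowest and non-stress 2 highest. The log2 difference was -0.12 (SE 0.09, 95% interval -0.32 to 0.07, adjusted p = 0.582 by edgeR), -0.20 without non-stress 1, -0.05 without stress 1 and -0.04 after the GC content and size correction. Sstr3, a receptor found on neuronal primary cilia, had 11.9, 13.3 and 13.0 CPM across non-stress 1, 2 and 3, and 11.3, 10.1 and 13.6 CPM across stress 1, 2 and 3. Stress 3 was the highest of its 6 libraries and stress 2 the lowest. Its log2 difference was -0.12 (SE 0.11, 95% interval -0.38 to 0.13, adjusted p = 0.681 by edgeR), and -0.03 after the same correction. It was also -0.03 without stress 2, and -0.25 without stress 3 (adjusted p = 0.536). Sstr4, a gene of a single exon, had 7.66, 6.52 and 7.24 CPM across non-stress 1, 2 and 3, and 7.66, 7.02 and 7.49 CPM across stress 1, 2 and 3, a log2 difference of 0.05 (95% interval -0.17 to 0.27, adjusted p = 0.864 by edgeR) that was -0.01 without non-stress 2. Thus the interval of each of these 4 receptors includes 0.

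All 3 neuropeptide Y receptors had log2 differences above 0, and all overlapped between the groups. Npy1r, the main postsynaptic receptor of the peptide in cortex, had 32.8, 26.5 and 27.9 CPM in non-stress 1, 2 and 3 and 32.8, 31.7 and 29.2 CPM in stress 1, 2 and 3. Non-stress 1 lay with the stress libraries, and non-stress 2 and 3 lay below them. The log2 difference was 0.10 (SE 0.09, 95% interval -0.09 to 0.30, adjusted p = 0.638 by edgeR), 0.20 without non-stress 1 (adjusted p = 0.160) and 0.04 without non-stress 2.

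Npy5r, the head-to-head neighbour of Npy1r and a receptor known for its part in feeding, had 8.38, 6.02 and 7.12 CPM in non-stress 1, 2 and 3 and 8.62, 11.0 and 7.64 CPM in stress 1, 2 and 3. Non-stress 1 was above stress 3, so the groups overlapped, and stress 2 was the highest. Its log2 difference of 0.34 (SE 0.16, 95% interval -0.01 to 0.69) had an unadjusted p of 0.0550 and adjusted p = 0.422 by edgeR. It was 0.19 without stress 2 and 0.47 without non-stress 1. The pair did not keep a constant ratio: the counts of Npy1r were 3.92, 4.41 and 3.92 times those of Npy5r across non-stress 1, 2 and 3, against 3.81, 2.89 and 3.83 times in stress 1, 2 and 3. The stress ratios were all below the non-stress ratios, in stress 1 and stress 3 by a small margin. This ratio was chosen after the values were seen and was not tested, and 3 libraries against 3 cannot give a two-sided exact permutation p below 0.10.

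Npy2r, a receptor that acts largely on nerve endings to limit release, was the lowest and the most variable of the 10 genes. It had 112, 37 and 48 counts in non-stress 1, 2 and 3 and 75, 95 and 81 counts in stress 1, 2 and 3, which is 2.60, 0.784 and 1.14 CPM against 1.80, 2.19 and 1.80 CPM. Non-stress 1 was the highest of all 6 libraries, while non-stress 2 and 3 were the lowest. With all libraries the log2 difference was 0.36 (SE 0.37, 95% interval -0.46 to 1.19, adjusted p = 0.714 by edgeR). Without non-stress 1 it was 1.01 (SE 0.23, adjusted p = 0.0435 by edgeR), in a fit in which 3.02% of all genes tested passed in the higher and 0.967% in the lower direction, and Npy2r was the only one of the 10 genes to pass. Without non-stress 2 it was 0.05, so the choice of non-stress libraries set its size.

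**Figure D3:**
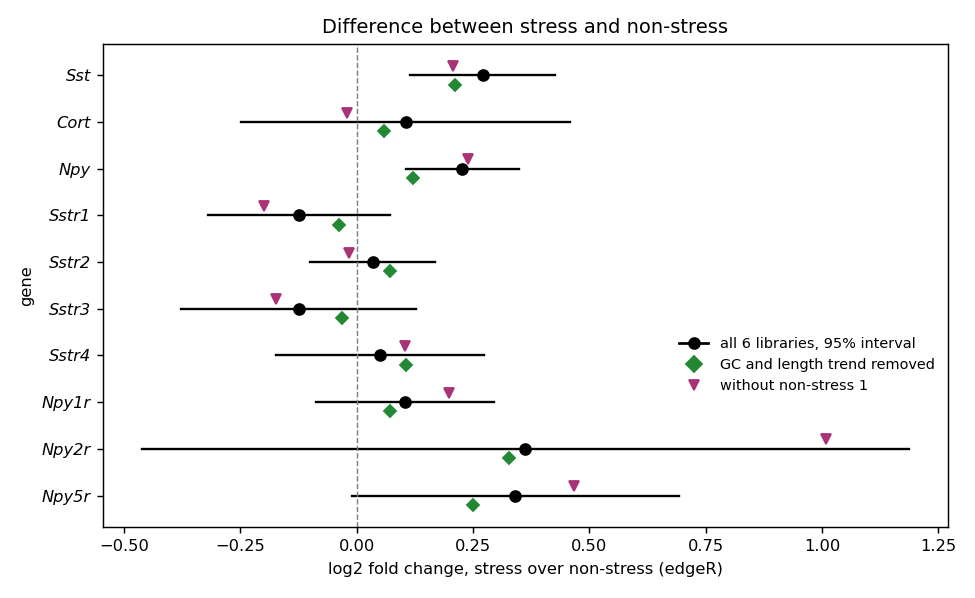
Log2 fold change of stress over non-stress for each gene by edgeR, with its 95% interval (black line), beside the value after the correction for GC content and transcript size (green diamonds) and the value without non-stress 1 (purple triangles). The intervals of Sst and Npy lie above 0 before adjustment over all genes, those of the other 8 genes include 0, and Npy2r moves from 0.36 to 1.01 without non-stress 1.

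Sst and Npy were next set against the GABAergic neurons that make them. In bulk tissue, fewer cells of a type and less RNA per cell cannot be told apart. The pan-GABAergic genes did not follow the peptides: 8 of the 9 had a log2 difference below 0, with a median of -0.19 (-0.20 without non-stress 1). An unadjusted p under 0.05 by edgeR was reached by 5 of them, all lower, and 0 of 9 passed after adjustment. Over all genes tested, 9644 of 19227 were below 0, and 6.27% were lower at an unadjusted p under 0.05. No median after the correction for GC content and transcript size was made for this list. Gad1, which makes most of the GABA in neurons, had 325, 361 and 346 CPM in non-stress 1, 2 and 3 and 321, 318 and 320 CPM in stress 1, 2 and 3 (log2 difference -0.11, adjusted p = 0.402 by edgeR). Gad2, the other GABA-making enzyme, was the member above 0, at 0.14, with overlapping groups. The transcription factor Dlx5 had the smallest p-value of the list (log2 difference -0.30, adjusted p = 0.351 by edgeR), with groups apart.

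Relative to Gad1 and Gad2 together, a ratio chosen after the values were seen, the counts of Sst were 0.483, 0.490 and 0.565 across non-stress 1, 2 and 3, against 0.629, 0.663 and 0.615 across stress 1, 2 and 3. Those of Npy were 0.157, 0.137 and 0.153 across non-stress 1, 2 and 3, and 0.180, 0.178 and 0.179 across stress 1, 2 and 3. Both ratios were higher in all 3 stress libraries than in all non-stress libraries, by 1.24-fold for Sst and 1.20-fold for Npy in the means. Most of this denominator came from Gad1, with 13355 to 17055 counts a library, against 5251 to 6475 for Gad2. Gad1 and Gad2 differed in opposite directions, so the separation depends on the denominator. With Gad2 alone as the denominator, the groups overlapped for both peptides. Between themselves the peptides kept a similar ratio, with 3.44 ± 0.322 counts of Sst for each count of Npy without stress and 3.55 ± 0.156 with it (SD, n = 3).

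**Figure D4:**
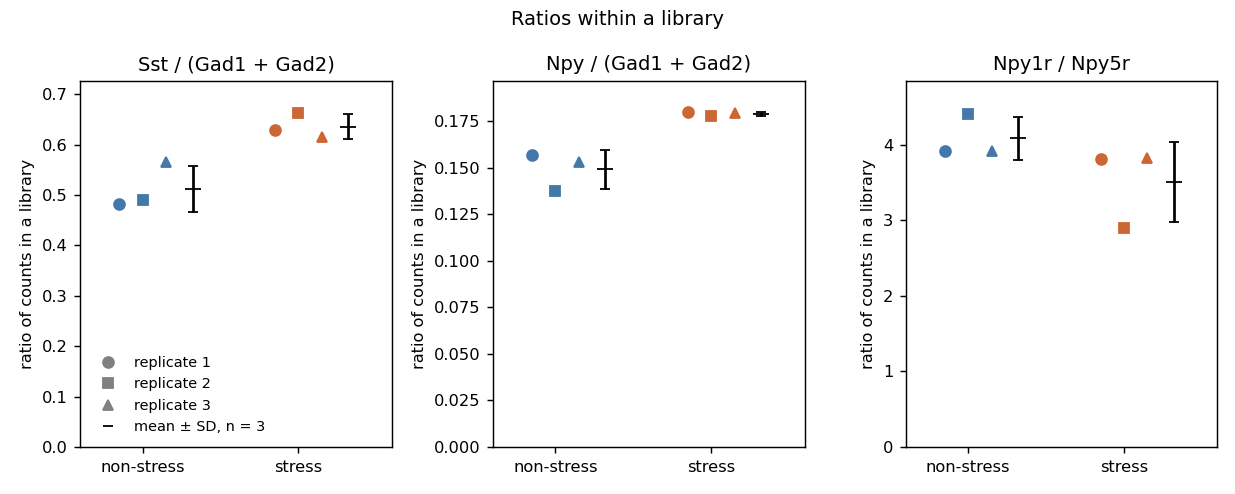
Ratios of counts within a library, from left to right Sst over Gad1 and Gad2, Npy over Gad1 and Gad2, and Npy1r over Npy5r, with 3 non-stress (blue) and 3 stress (orange) libraries, the replicate by shape and mean ± SD (n = 3) in black; axes start at 0. The first pair of ratios is higher in every stress library, and the third is lower in every stress library, with stress 2 farthest away.

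Other genes of the interneuron classes that hold the peptides gave no common direction. Of 13 genes enriched in somatostatin interneurons, 6 were above 0 and 7 below, with a median of -0.03 and 0 past the adjusted threshold. Chrna2, a nicotinic receptor subunit of a deep-layer somatostatin class, had 39, 67 and 54 counts without stress against 18, 25 and 33 with it (log2 difference -1.04, SE 0.28, adjusted p = 0.344 by edgeR), opposite in sign to Sst. Nos1, the neuronal nitric oxide synthase of long-range cells that make both peptides, had 514, 512 and 349 counts without stress against 499, 645 and 576 with it (log2 difference 0.35, SE 0.13, adjusted p = 0.384 by edgeR), with stress 1 just above non-stress 1 in CPM. Chodl, which marks those same cells, stood at -0.28 with overlapping groups. Of 6 neurogliaform genes, 2 were above 0 and 4 below, with a median of -0.05. Npas1 had a log2 difference of -0.24 and Ndnf, a marker of layer 1 cells, of 0.33 (adjusted p = 0.387 and 0.389 by edgeR). Among the markers of other interneuron classes, Syt2 of parvalbumin cells stood at -0.27 (adjusted p = 0.351 by edgeR). Its list had 4 of 4 members below 0, with a median of -0.05. The other members, Pvalb, Tac1 and Kcnc1, stood at -0.05, -0.03 and -0.04 with overlapping groups. Adarb2 of the vasoactive intestinal peptide list stood at 0.48 (adjusted p = 0.344 by edgeR), with 3 of 5 list members above 0 and a median of 0.09.

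Genes that process and release the peptides, and those that carry the signal of their receptors, were read in the same fit. Of 15 genes for peptide processing and dense-core vesicles, 6 were above 0 and 9 below, with a median of -0.03 and 0 past the threshold. Pam, the enzyme that amidates neuropeptide Y and many other peptides, stood at 50.3 ± 8.29 CPM without stress and 63.4 ± 3.79 CPM with it (SD, n = 3), a log2 difference of 0.33 (SE 0.10, adjusted p = 0.345 by edgeR). Its groups overlapped. Scg3, a granule protein, stood at 236 ± 9.63 and 257 ± 3.18 CPM with the groups apart (log2 difference 0.12, adjusted p = 0.351 by edgeR). Of 14 Gi/o signalling genes, 3 were above 0 and 11 below, with a median of -0.04 and 0 past the threshold. The adenylyl cyclases Adcy1 and Adcy9 led this list. Adcy1 stood at 252 ± 6.59 CPM without stress and 223 ± 5.02 CPM with it (log2 difference -0.18, adjusted p = 0.344 by edgeR). Adcy9 stood at 44.5 ± 2.67 and 37.5 ± 0.219 CPM (log2 difference -0.25, adjusted p = 0.344 by edgeR), and both had groups apart. Of the remaining genes of the families, Sstr5 was detected in all libraries at low counts. It had 40, 43 and 30 counts without stress against 42, 48 and 54 with it, and its CPM were higher in every stress library (0.715 to 0.928 against 1.01 to 1.20, log2 difference 0.38, SE 0.21, adjusted p = 0.497 by edgeR). In contrast, Npy4r, Npy6r, Pyy and Ppy had 0 counts in every library, which allows up to 0.0721 CPM at a limit of 3 counts.

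**Figure D5:**
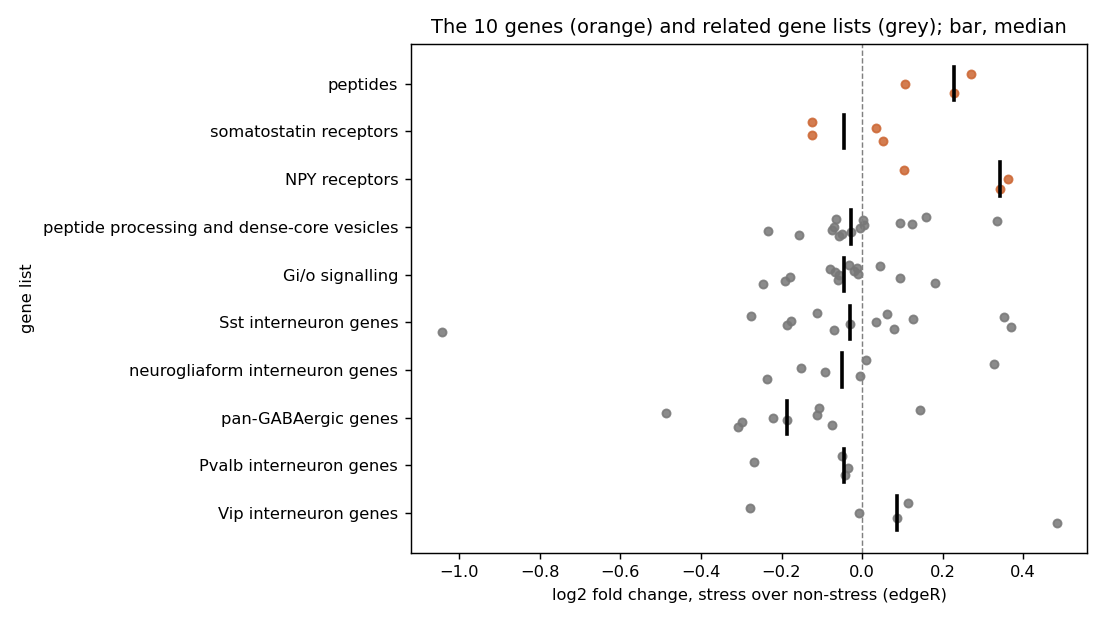
Log2 fold change of stress over non-stress (edgeR) of the 10 genes by role (orange) and of 7 related gene lists (grey; tissue and glial lists are not drawn), 1 point per tested gene, with the list's median as a black bar. The peptide and neuropeptide Y receptor points lie above 0, 8 of the 9 pan-GABAergic points lie below 0, the 4 parvalbumin points lie below 0, and the other lists drawn lie on both sides of 0.

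Genes that mark the pituitary and the hypothalamus were present at low levels, and their sums differed between the groups; the source of these counts was not tested. Over 7 pituitary hormone genes the summed level was 1.26 to 3.09 CPM over the non-stress and 3.79 to 14.0 CPM over the stress libraries. Growth hormone (Gh) carried most of the difference in means, with 9, 6 and 0 counts without stress against 337, 400 and 30 with it. Pomc had 108, 67 and 46 against 165, 148 and 118 counts, and Prl 0, 0 and 0 against 31, 39 and 7. The other 4 genes were at 15 counts or below and did not show this separation: Lhb had 5, 4 and 5 counts without stress and 0 in every stress library, Cga (0 to 12 counts) and Tshb (0 to 15 counts) overlapped, and Fshb was at 0 throughout. Over 7 hypothalamic peptide genes the summed level was 4.88 to 6.38 CPM over the non-stress and 6.80 to 7.57 CPM over the stress libraries, with none of the 7 at 0 in all libraries and Cartpt, at 116 to 175 counts, the largest contributor. Agrp, whose hypothalamic neurons also make neuropeptide Y, had 14, 9 and 6 counts without stress against 19, 15 and 14 with it. In CPM its groups overlapped, with non-stress 1 at 0.325 and stress 3 at 0.312. Of the 5 tested genes of this list, 5 were above 0, with a median of 0.57 and 0 past the adjusted threshold. Over all genes tested, 9583 of 19227 were above 0. In 2 of the 5 the groups were apart in the higher direction, against 8.43% of all genes tested. The part of these genes' tissues in the differences of Sst and Npy was not tested. Striatal genes, whose tissue also holds cells with both peptides, overlapped between the groups in their sum, at 248 to 268 CPM for non-stress libraries and 250 to 260 CPM for stress libraries, most of it from Ppp1r1b and Penk. Drd2, a dopamine receptor of the same list, was lower in every stress library (51, 46 and 46 counts without stress against 25, 32 and 21 with it, log2 difference -0.85, adjusted p = 0.344 by edgeR). The astrocyte, oligodendrocyte, microglia and endothelial lists had medians between -0.08 and 0.01, and 0 of their 18 genes passed the adjusted threshold. The summed astrocyte level was lower in all stress libraries (856 to 880 CPM) than in all non-stress libraries (883 to 921 CPM).

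The genes whose pattern over the 6 libraries was most like that of Sst and Npy were found among 10052 tested genes of at least 10 CPM, by the root mean square difference of log2 CPM centred on each gene's mean. For Sst they were Mt1, a metallothionein (difference 0.045), Gm15710 (0.048) and Gm5526 (0.048). Mt1 stood at 117 ± 11.2 CPM without stress and 138 ± 7.51 CPM with it (SD, n = 3). For Npy they were Magi2, a synaptic scaffold (0.027), Zmym6 (0.027) and Rap2b, a small GTPase (0.028). Magi2 stood at 84.6 ± 5.59 and 96.0 ± 1.56 CPM (SD, n = 3).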

How the data were processed

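The authors deposited raw counts as whole numbers, with a row for each gene (symbol and NCBI Gene ID) and a column for each library, and these were used unchanged. Per the submitters' processing notes, Trimmomatic 0.38, HISAT2 and StringTie were used with build GRCm38 (mm10), while for the counting step, the use of strand and the treatment of shared reads the tool and settings were not given in the sources used here. Per the labels' protocols, libraries were made from total RNA with a SMARTer low-input kit. The members and lists were chosen with earlier results of these data known.

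edgeR 4.0.16 (R 4.3.3) was run on all genes: filterByExpr kept 19227 of 45777, holding at least 99.9% of each library's counts, followed by TMM scaling, the quasi-likelihood test with group as the only term, and Benjamini-Hochberg adjustment at 0.05, two-sided. Intervals of log2 fold changes use the test's standard error and 9.50 degrees of freedom. CPM are counts over library totals, and a count of 0 was given a limit of 3 counts, which covers counting error only. Lengths and GC content came from GENCODE M21 (91.0% of tested genes). The first 2 genes of each related list by p-value, lists' counts and medians, and the 3 closest patterns to Sst and Npy were named, apart from a few genes that are not reported here. Alternatives were other scaling (RLE, upper quartile, totals), filters, thresholds, each library left out, a replicate block, DESeq2 1.42.0, limma-voom (limma 3.58.1) and removal of a smooth GC and length trend (mgcv 1.9.3). 2 were added after seeing the data: edgeR's adjusted-deviance form, and the trend removal without non-stress 1. The edgeR step was tested on simulated data with a single dispersion for all genes. The test required recovery only of changes larger than those of Sst and Npy, so it does not show the power at their size.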

Additional observations from a re-analysis of the deposited data

How the results depend on the processing

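Over the alternatives run, Sst (0.15 to 0.36), Npy (0.12 to 0.26), Npy1r, Npy2r and Npy5r stayed above 0 and Sstr1 and Sstr3 below 0, and CPM levels moved by less than 1 SD under TMM scaling. DESeq2 alone called Sst (0.27, adjusted p = 0.0248) and Npy (0.23, adjusted p = 0.0421), 2 members higher among 54 genes higher and 62 lower, and gave Npy2r no adjusted p. The adjusted p of Sst and Npy lay between 0.0543 and 0.726 by edgeR without any 1 library. Leaving out each library in turn gave log2 differences of 0.21 to 0.36 for Sst, -0.0214 to 0.223 for Cort, 0.18 to 0.26 for Npy, -0.0171 to 0.0908 for Sstr2, -0.00787 to 0.103 for Sstr4, -0.20 to -0.05 for Sstr1, -0.25 to -0.03 for Sstr3, 0.04 to 0.20 for Npy1r, 0.0468 to 1.01 for Npy2r and 0.19 to 0.47 for Npy5r, with 0 to 1 members called higher, 0 to 580 genes called higher and 0 to 186 called lower, where all libraries gave 1 and 0. The highest counts came without non-stress 1; the cause was not tested. Without non-stress 1 and with the GC and length trend taken out, Cort was at -0.0669 and Npy2r at 0.92, 1 member was called higher, and 535 genes were higher and 450 lower. Without non-stress 1 the median of the somatostatin interneuron list was 0.0532 and that of the vasoactive intestinal peptide list 0.25. Genes called lower numbered 4 at an adjusted p under 0.1 and 2 with the trend taken out, and 2 genes were called higher by limma-voom.

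The replicate numbers gave no sign of a pairing of the samples. Libraries with the same number had correlations of 0.016, -0.0298 and 0.0209 between their deviations from the group means over 19227 genes. Those with different numbers had correlations of -0.0504 to 0.036. With 3 libraries a group, these values cannot exclude a pairing. With replicate number as a block, Sst stood at 0.28 and Npy at 0.23 (adjusted p = 0.282 for both by edgeR), and 2 genes were called higher. With the block and the trend removal together, 2 genes were called higher and 3 lower, and 0 of the 10 genes passed in either fit. Depth limits Cort and Npy2r most, with 37 to 154 counts a library.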

Other observations

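Non-stress 1 differed from the other non-stress libraries in several marker genes as it did in Npy2r. Of 106 tested list genes other than the 10, 9 were at least 1.5 times as high in non-stress 1 as in both other non-stress libraries. The astrocyte gene Gfap had 26.6, 5.32 and 4.74 CPM in non-stress 1, 2 and 3 and 12.5 to 14.5 CPM in stress. Calb1, the calcium-binding protein calbindin, had 187, 81.8 and 81.5 CPM in non-stress and 145 to 159 CPM in stress, and the upper-layer gene Cux2 had 13.3, 6.25 and 6.29 CPM in non-stress and 9.21 to 11.1 CPM in stress. Calb2 (41.6, 17.0 and 15.5 CPM) was also high in non-stress 1, as were Agrp, Avp, Gh and Pomc at low counts. In Gfap, Calb1 and Cux2 the stress libraries lay between non-stress 1 and the other non-stress libraries, as they did in Npy2r. These genes were picked by this difference after the values were seen, and it was not tested.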
